A study of Sus scrofa with 10 samples.

Results

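The 100 mRNAs described here are those whose level in pig blood stood highest in the newborn relative to every later age. They were taken from a table of 12354 mRNAs, of which 12344 had a mean deposited value under 5000 FPKM (a read density, scaled to transcript length and to the mapped reads of the library) and could be chosen. Each library was first divided by its median-of-ratios factor, the median, over mRNAs, of its value divided by the mRNA's geometric mean, and the result is called scaled FPKM below. The score of an mRNA was its log2(scaled mean + 1) at day 0 minus the highest such value among the other 4 ages, and the 100 highest scores were kept. The members were thus selected on their scaled level at day 0 (D0) against the other ages, so every difference of a member from D0 below is a description and carries no test.

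Whole blood was taken from 10 healthy female Qingyu pigs, frozen in liquid nitrogen and sequenced after removal of ribosomal RNA, with 1 library for each pig. There were 2 pigs at each of 5 ages: 0 days (D0, newborn), 7 days (D7, suckling), 28 days (D28, weaning), 180 days (D180, sexual maturity) and 2 years (Y2, adult). Each pig was bled at 1 age, so no animal was followed through time. A p-value below rests only on the spread between different pigs of the same age. That spread was pooled over the 5 ages in 1 fit and drawn towards the spread of mRNAs of similar level. The depth behind a single value is unknown because FPKM holds no counts, and precision is limited by having 2 pigs an age. The libraries held blood: HBB, the beta chain of adult haemoglobin, had a mean deposited FPKM of 472064 at D0. Looked up by symbol, 1 of 12 liver markers and 0 of 10 muscle and stroma markers were found in the table. Of 20 erythroid markers 17 were found, and of 17 neutrophil markers 10. A marker not found is therefore not shown to be absent.

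Newborn blood is rich in reticulocytes, young red cells that have lost their nucleus but still hold RNA, ribosomes and mitochondria. As they mature, these cells degrade ribosomes and mitochondria through ubiquitin tagging and autophagy while they go on making haemoglobin. Blood of the newborn also carries neutrophils, short-lived phagocytes that store antimicrobial proteins.

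Of the 100 members, 74 had a gene symbol in the tables used here and 69 had a RefSeq position on Sscrofa11.1. Scores ran from 1.41 to 3.02 with a median of 1.64, on the log2 scale. The D0 mean was 2.67 to 25.2 times the mean of the next-highest age, with a median of 3.43 times, and the median ratio of D0 to D180 was 14.1. The next-highest age was D7 for 73 members, D28 for 26 and Y2 for 1. The lowest age was D180 for 78 members, Y2 for 13, D28 for 8 and D7 for 1. In 65 members the mean was lower at each step from D0 through D7 and D28 to D180. The median member stood at 80.3 scaled FPKM in the newborn and at 20.2, 15.3, 4.27 and 7.32 at the ages D7, D28, D180 and Y2.

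The members covered a wide range of abundance. Scaled D0 means ran from 2.24 to 9580, with 12 members under 10 and 20 above 500. The 2 newborn pigs were close to each other: the higher was a median of 1.05 times the lower over members and 1.14 times over all mRNAs, and 9 members had a ratio above 1.2, up to 1.55. Of the members, 99 reached 1 FPKM in at least 2 libraries, and 3 were listed at 0 in some library. The last members inside the limit were ENSSSCG00000031140, LYZ and ENSSSCG00000001528, each with a score of 1.41. The mRNAs just outside it, CHCHD5, RPL29 and ENSSSCG00000035226, also scored 1.41 to 2 decimals, so the limit falls in a continuous run of scores.

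The peak at D0 depends on how libraries are put on one scale. The factors were 0.437 and 0.455 for the D0 pigs, 0.501 and 0.539 at D7, 1.00 and 0.971 at D28, 2.87 and 3.03 at D180, and 1.60 and 1.59 at Y2. On deposited FPKM the median of all mRNAs stood 1.63 log2 units higher at D180 than at D0, and 90.4% of all mRNAs were highest at D180 and 2.95% at D0. On that scale 82 members were still highest at D0 and the other 18 at D180, among them LYZ, IL1R2, COX3, RPL14 and RPL11. After the 10 most abundant mRNAs were removed and the rest rescaled, all 100 members were highest at D0, against 5.16% of all mRNAs. Set against HBB in the same library, 27 members had their highest ratio at D0, against 0.656% of all mRNAs. The members made up 1.9% of the summed deposited FPKM in the newborn and 0.739%, 0.899%, 1.87% and 1.11% at the later ages in turn. In bulk blood a smaller number of cells of a type and less RNA in each cell cannot be told apart on any of these scales.

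**Figure D1:**
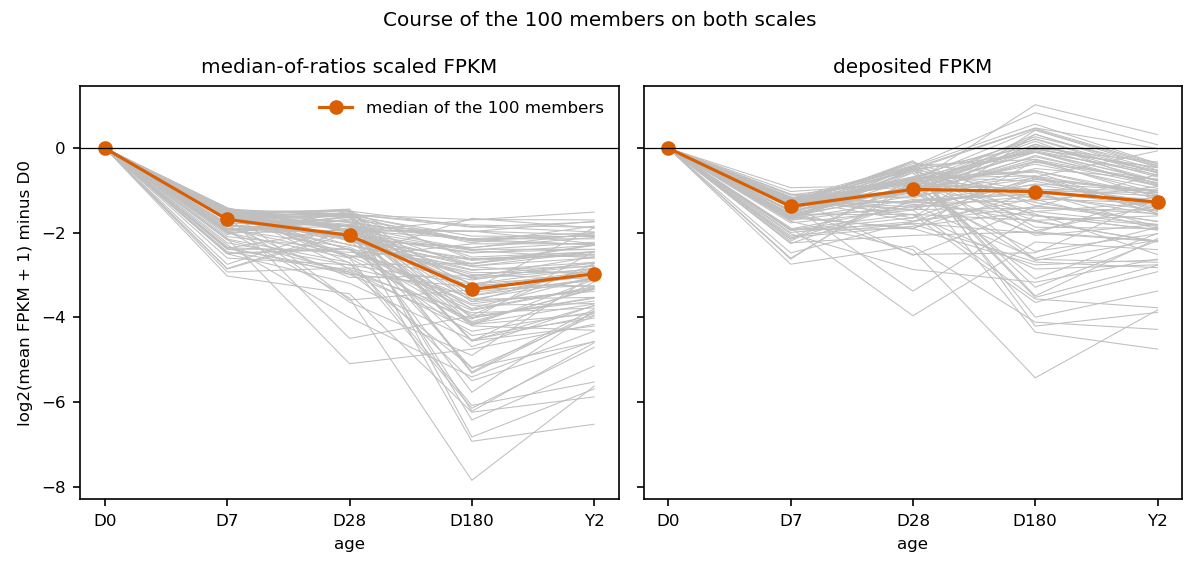
Each grey line is 1 of the 100 members, drawn as log2(mean FPKM + 1) minus its value at D0 over the 5 ages, on scaled FPKM (left) and on deposited FPKM (right), with the median in orange. The median lay at -3.34 at D180 and stood at -2.97 at Y2 on scaled FPKM, against -1.03 and -1.27 on deposited FPKM.

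The plot of both scales shows the members below their D0 level at every later age on scaled FPKM, which the rule fixed. On deposited FPKM the median was lower at each later age by 0.97 to 1.37 log2 units while some lines rose above the zero line at D180.

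The red cell genes HBZ, BPGM and XPO7 were highest at D0 and lowest at D180. HBZ encodes the zeta chain, an embryonic alpha-like globin, and lies on chromosome 3 from 41490758 to 41492883 (RefSeq, Sscrofa11.1; identifier ENSSSCG00000007975). The D0 pigs had 803 and 840 scaled FPKM, the D7 pigs 213 and 210, the D28 pigs 66.6 and 72.8, the D180 pigs 2.76 and 2.36, and the Y2 pigs 16.8 and 14.5. The ages did not overlap, and both adult pigs stood above both pigs of 180 days. BPGM, the enzyme that makes 2,3-bisphosphoglycerate and so sets the oxygen affinity of haemoglobin, had 341 and 345 at D0, 84.1 and 86.1 at D7, 53.5 and 58.0 at D28, 4.20 and 3.94 at D180, and 6.37 and 6.52 at Y2. XPO7, a nuclear export receptor known from the maturing erythroblast nucleus (chromosome 14, 6188040 to 6280034), had 560 and 553 at D0, 125 and 124 at D7, 80.6 and 88.4 at D28, 11.6 and 11.0 at D180, and 22.5 at Y2 in both pigs. In both genes the order of the ages was the same as in HBZ, with no overlap between ages.

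TRIM10, a ubiquitin ligase known from erythroid differentiation, had 19.2 ± 0.95 scaled FPKM at D0 (SD, n = 2), then 5.25 ± 0.28, 4.63 ± 0.67, 0.44 ± 0.09 and 1.09 ± 0.07 at D7, D28, D180 and Y2. Its order of ages was that of HBZ, but the D7 and D28 pigs overlapped, with 5.44 and 5.05 against 4.16 and 5.11.

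In several other members D28 lay close to D7 and D180 far below both. NCOA4, the receptor that delivers ferritin for autophagy and so frees iron (chromosome 14, 90505614 to 90531302), had 2330 and 2328 scaled FPKM at D0, 731 and 711 at D7, 682 and 730 at D28, 29.8 and 30.7 at D180, and 96.3 and 93.9 at Y2. NT5C3A, the pyrimidine nucleotidase that breaks down RNA-derived nucleotides in reticulocytes, had 1156 and 1066, then 395 and 352, 379 and 440, 9.23 and 8.32, and 18.3 and 22.8 at the same ages. TMCC2, a transmembrane coiled-coil protein (chromosome 9, 65910175 to 65952606), had 320 and 308, then 96.3 and 94.3, 103 in both D28 pigs, 2.80 and 2.53, and 8.13 and 7.63. In NCOA4 and NT5C3A the D7 and D28 pigs overlapped, and in all of these the D180 pigs were the lowest. UROD, the fifth enzyme of haem synthesis, had 37.5 ± 0.30 (SD, n = 2) at D0, then 12.6 ± 2.12, 12.1 ± 0.83, 0.64 ± 0.16 and 1.08 ± 0.13 at D7, D28, D180 and Y2.

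**Figure D2:**
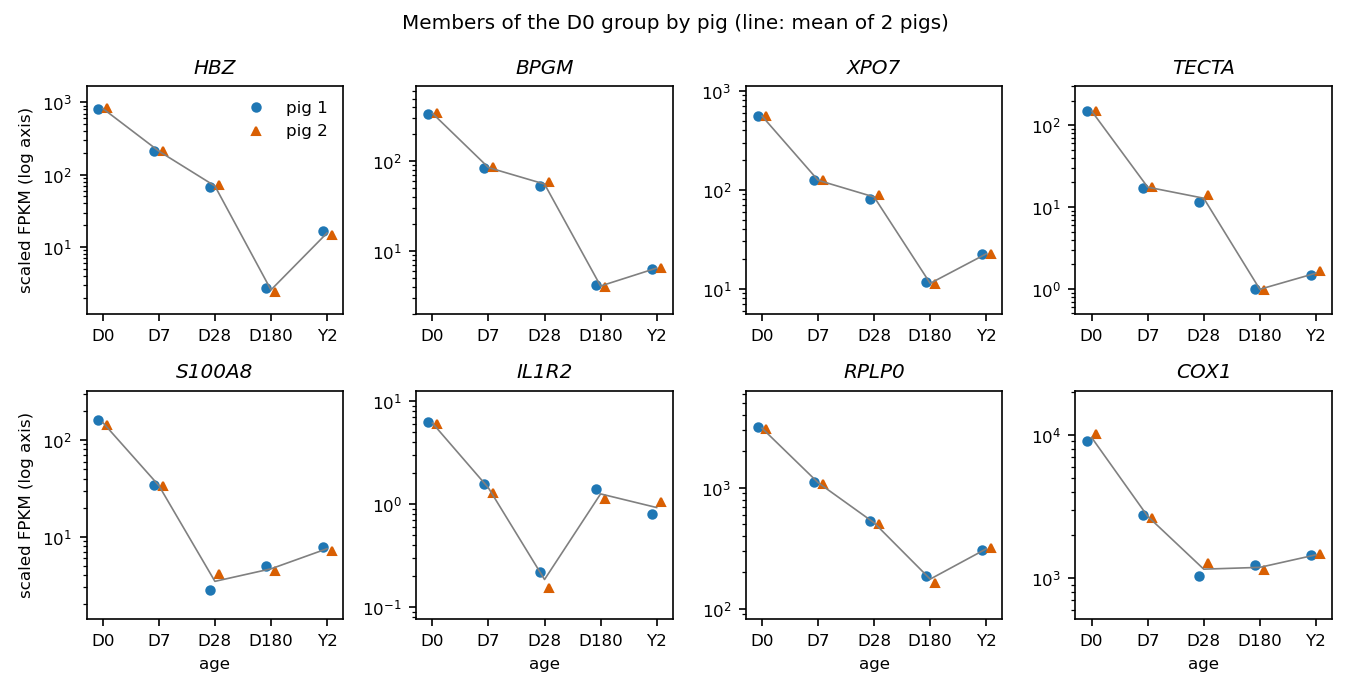
Scaled FPKM on a log axis for 8 members at the 5 ages, with 1 point for each pig and a line through the mean of the 2 pigs. HBZ, BPGM, XPO7, TECTA and RPLP0 were lowest at D180, whereas S100A8 and IL1R2 were lowest at D28.

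The plot by pig separates these courses. HBZ, BPGM and XPO7 were lower at each age down to D180 and higher again at Y2, the genes S100A8 and IL1R2 reached their lowest values at D28, and the mitochondrial gene COX1 stayed between 1032 and 1464 scaled FPKM in the D28, D180 and Y2 pigs.

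Members of the ubiquitin and autophagy systems, which clear organelles from young red cells, were among the group. TRIM58, an erythroid ubiquitin ligase, had 70.7 ± 1.12 scaled FPKM at D0, then 17.3 ± 0.13, 21.1 ± 1.92, 0.79 ± 0.14 and 3.85 ± 0.05 at D7, D28, D180 and Y2 (SD, n = 2). TAX1BP1, an autophagy receptor, had 640 ± 24.1, 195 ± 5.36, 233 ± 22.4, 26.3 ± 0.66 and 47.6 ± 0.75 at the same ages. UBAC1, a subunit of a ubiquitin ligase, had 237 and 230 at D0, 30.8 and 32.0 at D7, 52.9 and 60.9 at D28, 5.74 and 4.93 at D180, and 14.3 and 13.7 at Y2. In each of TRIM58, TAX1BP1 and UBAC1 both D28 pigs stood above both D7 pigs, and D180 was the lowest age. FBXO30 and FBXO3, substrate-binding subunits of ubiquitin ligases, had 30.0 ± 1.08 and 57.2 ± 1.85 at D0 and 2.58 ± 0.34 and 1.90 ± 0.05 at D180. Their F-box family as a whole lay near the share of all mRNAs. Of 38 F-box genes measured, 13 (34.2%) had their highest scaled mean at D0, against 28.4% of all mRNAs, and 4 on deposited FPKM. YOD1, a deubiquitinase, had 108 and 113 at D0, 34.5 and 34.1 at D7, 7.11 and 8.71 at D28, 2.72 in both D180 pigs, and 12.5 and 13.5 at Y2. CHMP5, a part of the machinery that sorts membrane proteins for breakdown, had 58.1 ± 0.06 at D0 and 5.37 ± 0.23 at D180.

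The neutrophil and monocyte genes S100A8, S100A12, IL1R2 and LYZ had their lowest scaled mean at D28 rather than at D180. S100A8, a subunit of calprotectin, the calcium-binding protein that fills the neutrophil cytosol, lies on chromosome 4 from 96209670 to 96210603. Its level was 161 and 142 scaled FPKM in the D0 pigs, 34.5 and 33.2 at D7, 2.82 and 4.11 at D28, 4.94 and 4.40 at D180, and 7.87 and 7.20 at Y2. S100A12, a related neutrophil protein 15088 bases from it (96225691 to 96227030), had 13.6 and 21.1 at D0, 5.53 and 5.84 at D7, 0.407 and 0.646 at D28, 0.855 and 0.754 at D180, and 1.35 and 1.17 at Y2. In both genes the D28 pigs were lowest and the D7 pigs stood above all older pigs. IL1R2, the decoy receptor that binds interleukin 1 without signalling, had 6.29 and 5.94 at D0, 1.57 and 1.29 at D7, 0.217 and 0.153 at D28, 1.39 and 1.11 at D180, and 0.805 and 1.04 at Y2. LYZ, the bacteriolytic enzyme lysozyme of monocytes and neutrophils, had 161 and 178 at D0, 62.8 and 63.4 at D7, 25.8 and 29.0 at D28, 35.2 and 34.0 at D180, and 36.0 and 33.2 at Y2. On deposited FPKM IL1R2 and LYZ were highest at D180, with means of 3.69 and 102 against 2.73 and 75.8 at D0.

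ARG1, arginase 1, stood on the neutrophil list but did not share this low point at D28. It had 1310 and 1587 scaled FPKM at D0, 208 and 193 at D7, 339 and 420 at D28, 27.6 and 23.5 at D180, and 99.3 and 100 at Y2. Both D28 pigs were above both D7 pigs and the D180 pigs were lowest, the order seen in UBAC1. The 7 measured neutrophil markers that were not members summed to 39.0 and 39.7 at D0, 61.9 and 61.7 at D7, 9.16 and 9.32 at D28, 43.1 and 39.7 at D180, and 53.4 and 52.5 at Y2. That sum was not highest at D0 and consisted mostly of CSF3R, the receptor for the growth factor of granulocytes, with a scaled mean of 27.1 at D0 and 53.7 at D7. Of the 7, MMP8, LTF, PGLYRP1 and CD177 did have their highest scaled mean at D0. Like ARG1, these genes were not lowest at D28. MMP8 had 0.091 at D28 and 0.012 at D180, LTF 0.45 and 0.043, PGLYRP1 0.21 and 0.16, and CD177 0.038 and 0.031, all low values. CSF3R, MMP9 and LCN2 were lowest at D28. The sum's part in the courses of S100A8 and S100A12 was not tested.

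Ribosomal proteins made up 10 of the members, a family singled out after its values were seen. They included RPS2, RPLP1, RPL36A, RPS7, RPLP0, RPL14, RPL10, RPL35 and RPL11, out of 48 cytosolic ribosomal protein genes measured. Of the 48, 46 (95.8%) had their highest scaled mean at D0, against 28.4% of all mRNAs, while on deposited FPKM 10 did. The median of the 48 was 453 scaled FPKM at D0, then 221, 159, 117 and 134 at D7, D28, D180 and Y2. RPLP0, the scaffold of the ribosomal stalk (chromosome 14, 40219196 to 40223943), had 3166 and 3055 at D0, 1124 and 1083 at D7, 528 and 499 at D28, 187 and 164 at D180, and 307 and 320 at Y2. RPS2, of the small subunit, had 596 and 597, then 117 in both D7 pigs, 72.4 and 76.4, 33.7 and 29.8, and 68.3 and 68.2. In RPLP0 no ages overlapped. Ribosomal protein genes have many near-identical processed copies, so their values are uncertain where reads could be split among copies.

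**Figure D3:**
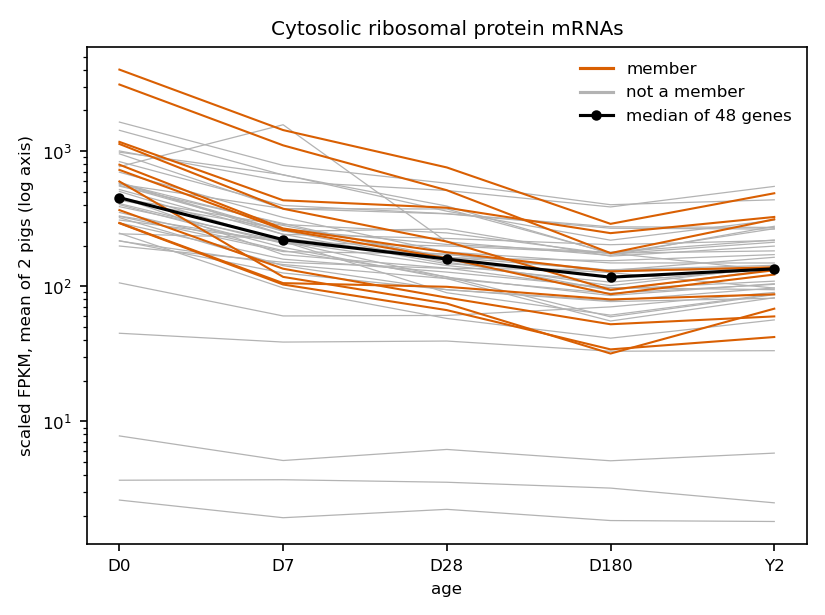
Scaled FPKM, the mean of 2 pigs on a log axis, for 48 cytosolic ribosomal protein genes at the 5 ages, with the 10 members in orange and the median in black. The median was 453 at D0, reached 117 at D180 and stood at 134 at Y2.

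The plot of ribosomal protein genes shows 41 of the 48 lines, those of all 10 members included, lower at each age from D0 to D180. Others departed from this order, such as RPS24 with its highest mean at D7. RPL5 rose from 60.3 at D7 to 60.8 at D28 and 70.4 at D180. HBS1L, which rescues stalled ribosomes (chromosome 1, 28968778 to 29052427), had the third-highest score, with 142 and 147 scaled FPKM at D0, 23.7 and 25.7 at D7, 14.4 and 15.4 at D28, 4.97 and 5.58 at D180, and 8.40 and 8.31 at Y2.

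Mitochondrial genes included 4 members of the cytochrome c oxidase family, the last enzyme of the respiratory chain, also grouped after the values were seen. Of 21 subunits and assembly factors measured, 14 (66.7%) had their highest scaled mean at D0, against 28.4% of all mRNAs, and 7 on deposited FPKM. COX1 and COX3 are encoded by the mitochondrial genome itself, 1745 bases apart. COX1 was the most abundant member, with 9014 and 10147 scaled FPKM at D0, 2765 and 2631 at D7, 1032 and 1272 at D28, 1240 and 1132 at D180, and 1438 and 1464 at Y2. COX3 had 3966 and 4737 at D0, 1662 and 1590 at D7, 1012 and 1204 at D28, 1394 and 1296 at D180, and 1518 and 1534 at Y2. After D7 neither gene showed the low point at D180 seen in HBZ, BPGM and XPO7. On deposited FPKM COX3 was highest at D180 (3966 against 1945 at D0). The nuclear-encoded COX17, a copper chaperone for the enzyme, and COX7A2, a subunit, had 734 ± 94.4 and 267 ± 2.94 at D0 and 33.1 ± 0.83 and 13.6 ± 1.82 at D180. Of 13 proteins encoded by the mitochondrial genome, 12 were highest at D0 on scaled FPKM and 1 on deposited FPKM.

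The highest scores belonged to genes outside these systems. TECTA, alpha-tectorin, known as a matrix protein of the inner ear, had 148 and 151 scaled FPKM at D0, 17.3 and 17.8 at D7, 11.7 and 14.0 at D28, 0.998 and 0.979 at D180, and 1.46 and 1.65 at Y2. WFDC2, a secreted protease-inhibitor-like protein (chromosome 17, 47816452 to 47824087), had 30.3 and 32.0 at D0 and between 1.65 and 3.60 in the other 8 pigs. TECTA was lower at each step to D180, whereas WFDC2 stayed within this narrow range after D0. ACOT13, an acyl-CoA thioesterase, and SLC7A11, the cystine transporter that feeds glutathione synthesis, also kept to a narrow range after D0, with 11.9 ± 0.39 and 11.7 ± 0.72 at D0 against 0.90 to 1.36 and 0.83 to 1.42 in the means of the later ages. PTP4A2, a protein phosphatase, had 357 ± 7.57 at D0, then 67.3 ± 1.63, 67.3 ± 9.49, 26.2 ± 1.37 and 27.1 ± 0.54 at D7, D28, D180 and Y2. ZMAT2, a zinc finger protein of the spliceosome, had 102 and 96.8 at D0, 22.9 and 16.2 at D7, 6.28 and 4.23 at D28, 1.08 and 1.63 at D180, and 2.77 and 5.21 at Y2, with some overlap of the D28 and Y2 pigs. ENDOD1, an endonuclease-domain protein, and FOXO4, a transcription factor of the forkhead family, had 169 ± 3.08 and 25.4 ± 0.87 at D0 and 3.69 ± 0.53 and 1.70 ± 0.22 at D180. The highest-scoring genes without a symbol were ENSSSCG00000040440 and ENSSSCG00000038068. MCM2, a subunit of the replicative helicase, had 9.20 ± 0.28 at D0 and 1.54 ± 0.22 at D7.

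The changes between later ages do not involve D0 directly and were tested for all 12354 mRNAs with limma on log2(scaled FPKM + 1), all 5 ages in 1 fit. An mRNA was called where its log2 change was 1.5 or more in size and its Benjamini-Hochberg adjusted p did not exceed 0.05. The rule also used the highest of the later ages, so each member lay at least 1.41 log2 units under its D0 value at all of them, but it did not fix their order.

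On scaled FPKM the neutrophil members S100A8 and S100A12 fell from D7 to D28, and of the named red cell members HBZ alone was called. No member was called higher, where 0.469% of all mRNAs were, and 6 members were called lower, where 1.82% of all mRNAs were. These were S100A8, S100A12, YOD1, ZMAT2, HBZ and ENSSSCG00000006588, a gene without a symbol here that was singled out after its values were seen. S100A8 fell by 2.98 log2 units (SE 0.13, limma adjusted p = 1.26e-06), S100A12 fell by 2.13 (SE 0.17, adjusted p = 3.44e-05) and YOD1 fell by 1.99 (SE 0.09, adjusted p = 1.26e-06). HBZ fell by 1.59 (SE 0.09, adjusted p = 4.8e-06). ENSSSCG00000006588 fell by 2.87 (SE 0.24, adjusted p = 3.72e-05), from 21.4 and 12.8 scaled FPKM in the D7 pigs to 1.33 and 1.48 in the D28 pigs. By adjusted p alone 51 members were lower, against 22.8% of all mRNAs, and 10 were higher, against 18.4%. At an unadjusted p under 0.05 these counts were 55 and 10. Both D28 pigs were below both D7 pigs in 60 members, against 34.2% of all mRNAs, and above them in 15, against 35%. On deposited FPKM 2 members were called lower (0.38% of all mRNAs), S100A8 and ENSSSCG00000006588, and 2 higher (2.02%), ARG1 and UBAC1. The balance by adjusted p alone turned on that scale, with 11 members lower (5.9% of all mRNAs) and 65 higher (65.3%), and the median of the members was 0.43 log2 units higher at D28, against 0.46 for all mRNAs.

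From D28 to D180 the members that fell most on scaled FPKM included NT5C3A, TMCC2, NCOA4 and HBZ. The calls were 34 lower, where 2.59% of all mRNAs were, and 0 higher, where 0.437% were. The median log2 change was -1.02 for members and -0.02 for all mRNAs. NT5C3A fell by 5.39 log2 units (SE 0.12, limma adjusted p = 2.17e-08), TMCC2 fell by 4.82 (SE 0.06, adjusted p = 8.2e-09), NCOA4 fell by 4.50 (SE 0.07, adjusted p = 8.8e-09) and HBZ fell by 4.31 (SE 0.09, adjusted p = 1.96e-08). ENSSSCG00000025414, also without a symbol and singled out after its values were seen, had 241 scaled FPKM in both D28 pigs and 6.96 and 5.61 at D180.

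Other named members fell less steeply over this step. ARG1 fell by 3.84 log2 units, TRIM58 by 3.62, BPGM by 3.48, UBAC1 by 3.19, TAX1BP1 by 3.10, UROD by 3.01, TECTA and XPO7 by 2.79 each and TRIM10 by 1.97, all called. Of the cytochrome c oxidase members COX7A2 fell by 2.19 and COX17 by 2.04. S100A8 and S100A12 changed by 0.36 and 0.25, with adjusted p of 0.0729 and 0.327 in limma, and IL1R2 was higher by 0.93 (adjusted p = 0.000199), below the fold limit. By adjusted p alone 78 members were lower, against 18.0% of all mRNAs, and 2 were higher, against 14.4%. At an unadjusted p under 0.05 they were 83 and 3. Both D180 pigs were below both D28 pigs in 89 members, against 35.8% of all mRNAs, and above them in 6, against 32.1%.

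The calls of this step depended on scale. On deposited FPKM the median of all mRNAs was 1.07 log2 units higher at D180 than at D28, and that of the members 0.21 higher. There 14 members were called lower, against 0.898% of all mRNAs, and 6 higher, against 17.8%. With adjusted p alone, 34 were lower there, against 3.32%, and 50 higher, against 90.6%, so the balance turned. The 14 were among the 34 and included HBZ, BPGM, TECTA, ARG1, TAX1BP1, UROD, NT5C3A, UBAC1, TRIM58, TMCC2, NCOA4 and MARCHF3. RPLP0 fell by 1.54 on scaled FPKM (adjusted p = 4.49e-06) and changed by 0.03 on deposited FPKM (adjusted p = 0.71), so its sign differed between the scales. The 6 called higher on deposited FPKM included S100A8, IL1R2, LYZ, COX1 and COX3. Set against HBB, the ratio was lower in both D180 pigs than in both D28 pigs for 17 members, against 1.17% of all mRNAs.

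**Figure D4:**
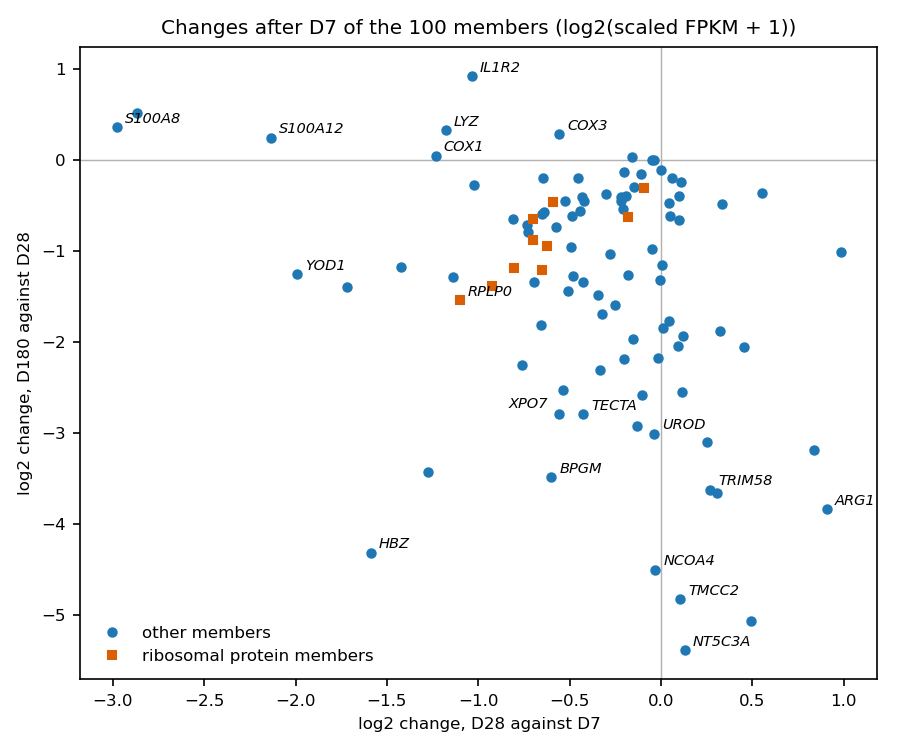
Each point is 1 of the 100 members, placed by its log2 change from D7 to D28 and by its log2 change from D28 to D180, both on log2(scaled FPKM + 1), with ribosomal protein members as orange squares. NT5C3A, TMCC2 and NCOA4 lie near 0 on the first axis and at -5.39, -4.82 and -4.50 on the second, whereas S100A8 lies at -2.98 and 0.36.

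The plot of both steps shows HBZ low on both axes, at -1.59 and -4.31. Ribosomal protein members lie between, with changes of -1.10 to -0.09 from D7 to D28 and of -1.54 to -0.31 from D28 to D180.

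From D180 to Y2 some members, HBZ among them, rose on scaled FPKM. The calls were 5 higher, where 0.445% of all mRNAs were, and 0 lower, where 0.0809% were. HBZ rose by 2.23 log2 units (SE 0.09, limma adjusted p = 6.3e-06), ARG1 by 1.93 (SE 0.13, adjusted p = 6.24e-05), YOD1 by 1.91 (SE 0.09, adjusted p = 1.06e-05) and NCOA4 by 1.62 (SE 0.07, adjusted p = 7.52e-06). The remaining call had no symbol here. TRIM58, TMCC2 and UBAC1 were higher by 1.44, 1.28 and 1.25, under the fold limit. By adjusted p alone 45 members were higher, against 7.47% of all mRNAs, and 0 lower, against 3.95%, and at an unadjusted p under 0.05 56 and 0 in limma. Both Y2 pigs were above both D180 pigs in 70 members, against 33.1% of all mRNAs, and below them in 6, against 27.3%. On deposited FPKM HBZ remained the single member called higher (0.105% of all mRNAs), with a log2 change of 1.60, and 0 were called lower (1.25%). By adjusted p alone 19 members were higher there (2.49% of all mRNAs) and 56 lower (84.6%), and the median of the members was -0.37, against -0.65 for all mRNAs, so the balance turned. Without D180 pig 1 the count of members called higher was 8.

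On scaled FPKM most members were lower in the adult than at day 7, which deposited FPKM did not show. On scaled FPKM Y2 against D7 gave 37 members called lower, where 3.28% of all mRNAs were, and 0 called higher, where 0.405% were. NT5C3A was lower by 4.13 log2 units (SE 0.12, limma adjusted p = 1.24e-07), HBZ by 3.68 (SE 0.09, adjusted p = 5.64e-08) and BPGM by 3.53 (SE 0.06, adjusted p = 3.32e-08). TMCC2 was lower by 3.44, NCOA4 by 2.91, TECTA by 2.86 and XPO7 by 2.42, all called. S100A8 was lower by 2.03 and called, whereas IL1R2 (-0.34) and WFDC2 (-0.03) were not. By adjusted p alone 88 members were lower, against 23.1% of all mRNAs, and 0 higher, against 17.6%, and at an unadjusted p under 0.05 89 and 0 in limma. Both Y2 pigs were below both D7 pigs in 94 members, against 35.5% of all mRNAs, and above them in 0, against 37%. On deposited FPKM the median of all mRNAs was 0.90 log2 units higher at Y2 and that of the members 0.23 higher, 7 members were called lower (0.356% of all mRNAs) and 1, COX3, higher (11.8%). The 7 included BPGM, TECTA, NT5C3A, HBZ and TMCC2. On deposited FPKM and by adjusted p alone, 28 members were lower (3.78% of all mRNAs) and 48 higher (84.0%).

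The lists of marker and pathway genes place the members among related genes. All 17 measured erythroid markers had their highest scaled mean at D0, and 3 of them were members, TRIM10 and BPGM included. On deposited FPKM 12 of the 17 were highest at D0. The 14 that were not members summed to 13076 and 12987 scaled FPKM in the D0 pigs, 7940 and 7818 at D7, 4735 and 4876 at D28, 611 and 519 at D180, and 2020 and 1889 at Y2. The sum was lowest at D180 and higher at Y2, in the same order of ages as HBZ and BPGM. It consisted mostly of ALAS2, with scaled means of 9350 at D0, 5978 at D7 and 4105 at D28. Each of the 14 was lowest at D180. GYPC, KLF1, EPB42, SPTB and CA2 were higher at D28 than at D7, so they did not share the whole order. Of these 14, limma called 12 lower from D28 to D180 (8 on deposited FPKM), 4 higher from D180 to Y2 (0 on deposited FPKM) and 12 lower at Y2 than at D7 (1 on deposited FPKM). The part of the erythroid markers in the courses of the members was not tested.

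Lists of red cell pathways are given beside all mRNAs, of which 28.4% were highest at D0 on scaled FPKM and 2.95% on deposited FPKM. Called lower were 2.59% (0.898% on deposited FPKM) from D28 to D180 and 3.28% (0.356%) at Y2 against D7. Of 15 genes of haem synthesis and iron 14 were highest at D0 (6 on deposited FPKM), with UROD the only member, 7 were called lower from D28 to D180 (6 on deposited FPKM) and 6 at Y2 against D7 (2 on deposited FPKM). Of 15 erythroid membrane and cytoskeleton genes 13 were highest at D0 (5 on deposited FPKM), 14 were called lower from D28 to D180 (9 on deposited FPKM) and 11 at Y2 against D7 (2 on deposited FPKM). Of 14 autophagy and mitophagy genes 11 were highest at D0 (6 on deposited FPKM), 9 were called lower from D28 to D180 (4 on deposited FPKM) and 9 at Y2 against D7 (0 on deposited FPKM), with TAX1BP1, FBXO30 and TRIM58 as members. Of 6 fetal globins and their regulators 5 were highest at D0 (2 on deposited FPKM), with HBZ the only member, and of 21 cell cycle genes 18 were (4 on deposited FPKM), with MCM2 the only member.

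White cell and response lists lay on both sides of the share of all mRNAs that were highest at D0. That share was 28.4% on scaled FPKM and 2.95% on deposited FPKM. On scaled FPKM the highest mean was at D0 in 7 of 10 neutrophil markers, 2 of 7 monocyte markers, 4 of 10 platelet markers, 1 of 12 T cell markers, 0 of 10 B cell markers, 1 of 9 NK cell markers, 0 of 5 eosinophil and basophil markers and 0 of 4 progenitor markers. The same was true of 3 of 7 neutrophil granule proteins, 5 of 14 glucocorticoid response genes, 2 of 12 inflammation genes, 4 of 16 interferon response genes, 3 of 15 hypoxia and glycolysis genes and 3 of 10 heat shock genes. It was true of 1 of 5 oncofetal RNA-binding genes, 1 of 3 imprinted fetal growth genes and 1 of 2 collagen and matrix genes. Neutrophil markers, platelet markers, granule proteins and glucocorticoid response genes lay above the share of all mRNAs. So did the small imprinted and collagen lists. Monocyte markers and heat shock genes lay near that share, and the other white cell and response lists lay below it. On deposited FPKM 7 of 10 neutrophil markers were highest at D0, beside 12 of 17 erythroid markers. The same held for 3 granule proteins, 1 hypoxia gene, 1 collagen gene and 0 genes of the other white cell and response lists. The members in these lists were S100A8, S100A12 and ARG1 (neutrophil), LYZ (monocyte) and IL1R2 (glucocorticoid response and inflammation).

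**Figure D5:**
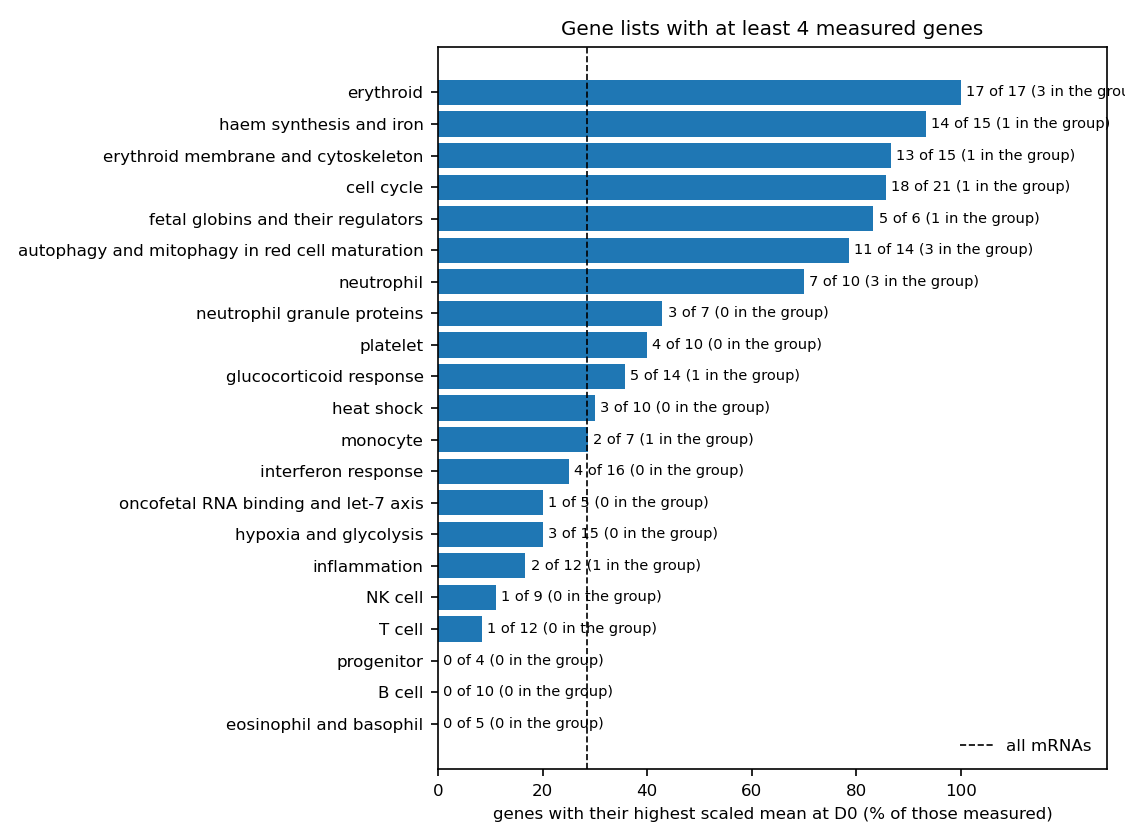
Bars give the percent of measured genes of each list whose highest scaled mean was at D0, with the number of genes and of members beside each bar, for lists with at least 4 genes measured. The dashed line marks all mRNAs at 28.4%, and the erythroid markers reach 17 of 17.

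The plot of lists puts the red cell lists and the cell cycle list at the top, and the B cell, eosinophil and basophil, and progenitor lists at the bottom with 0 genes. These bars use the D0 level that chose the members and are a description.

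The 69 members with a position were spread over the genome, with at most 8 on a chromosome. Their median gene length was 16103 bases, against 29686.5 for all placed mRNAs. Within 1 megabase of each other lay S100A8 and S100A12, COX1 and COX3, and ABTB1 with MCM2 on chromosome 13, which were 50690 bases apart. Among the lncRNAs assembled from the same reads 6 overlapped 5 of the 69 members with a position. The position of TCONS_00090136, from 18903934 to 18903962, is shorter than the length the study required of a lncRNA. Positions may thus not cover whole transcripts, and further overlaps could have been missed. Of these 6, 2 (33.3%) were highest at D0, against 16.7% of all lncRNAs. One of them, TCONS_00090136 in UBE2H, rests on a single library, with 0.895 scaled FPKM in D0 pig 1 and 0 in every other pig. For the 6, limma called 0 between D0 and the mean of the other ages, where 2.02% of all lncRNAs were called higher and 0.185% lower. The lncRNAs overlapping CCDC25, GHITM and UBE2H, and TCONS_00001265 in HBS1L, stayed under 1 scaled FPKM in every pig. On log2(scaled FPKM + 1) their difference could not reach the limit of 1, so no call was possible for them. At an unadjusted p under 0.05 limma gave 2 of the 6 higher at D0 and 1 lower. The lncRNA TCONS_00011164 overlapping NCOA7 had a mean of 1.21 scaled FPKM at D0 and 0.272 to 0.863 in the other 8 pigs, with a log2 difference of 0.54 (SE 0.07, limma adjusted p = 0.00282) that was under the limit of 1.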

How the data were processed

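The authors mapped reads to Sscrofa11.1 and deposited FPKM per mRNA and per lncRNA, with every mRNA above 0.5 FPKM and every lncRNA above 0.1 FPKM in at least 1 library. The submitters' processing notes name CASAVA 1.8.2, HISAT2 2.0.4, StringTie 1.3.3 and Cufflinks 2.2.1. No counts were used here, so the depth behind a value is unknown.

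Median-of-ratios factors came from the 11527 mRNAs above 0 in all libraries and divided every value of a library, which assumes that most mRNAs do not change. Contrasts between ages after D0 were fitted with limma 3.58.1 (R 4.3.3) on log2(scaled FPKM + 1), a pseudocount of 1 that understates changes of low genes, with a trend of variance on mean, and adjusted by Benjamini-Hochberg across 12354 mRNAs. The study names no test for mRNAs. Its fold limit of 1.5 (log2) was kept, and 1 was used for lncRNAs. On simulated data for D28 against D7, 200 of 12354 mRNAs were changed by 2 log2 units, 193 of them were recovered and 0 of the others were called. The changed mRNAs were drawn only from the better-expressed ones, so recovery among low mRNAs was not tested. The remaining work was done in Python 3.11.15 (numpy 2.4.6, pandas 2.3.3 and matplotlib 3.10.9).

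Symbols and positions came from RefSeq and gene-name tables, which matched 9735 of 12354 identifiers. The members, the marker and pathway lists and the tests were chosen with earlier results of these data known. Named with values were the 20 highest scores where a symbol was known, members of a list, the 3 called members with the largest change each way in each contrast, and those next to the limit. Members of the same family, other called members and the identifiers said to be singled out were added after their values were seen. Promoter motifs were not searched here, and some members are not reported by name. Alternatives were deposited FPKM, removal of the 10 most abundant mRNAs, a pseudocount of 0.1, a filter of 1 FPKM in 2 libraries, only the ages compared, no trend, no fold limit, a block for the pig number and each pig left out in turn.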

Additional observations from a re-analysis of the deposited data

How the results depend on the processing

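Scaling and the fold limit both moved the counts. On deposited FPKM the members called higher and lower were 2 and 2 for D28 against D7, 6 and 14 for D180 against D28, 1 and 0 for Y2 against D180, and 1 and 7 for Y2 against D7. Of the 82 calls 24 were kept, 53 lost and 5 changed sign, among them COX17 for Y2 against D7 at 0.0527 (log2). With the 10 most abundant mRNAs removed 46 calls were kept and 36 lost, and 12 members were lower for Y2 against D7. With no fold limit the counts were 10 and 51, 2 and 78, 45 and 0, and 0 and 88, but on deposited FPKM 65 and 11, 50 and 34, 19 and 56, and 48 and 28, with the balance turned in each contrast. A pseudocount of 0.1 gave 1 member higher for D180 against D28, 12 higher for Y2 against D180 and 1 lncRNA called higher. Leaving out each pig in turn gave 5 to 6 lower for D28 against D7, 33 to 36 lower for D180 against D28, 5 to 8 higher for Y2 against D180 and 34 to 38 lower for Y2 against D7. Pig numbers do not pair the pigs of different ages, which are different animals, and their deviations correlated between -0.093 and 0.0609. With the pig number as a block the counts remained 0 and 6, 0 and 34, 5 and 0, and 0 and 37. Choosing the 100 members again shared 51 with the group on deposited FPKM, 74 with the 10 removed, 64 with a pseudocount of 0.1 and 89 to 100 without a pig. The cause of these differences was not tested. A single pair of pigs at each age limits every comparison.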
